A study of Mus musculus with 4 samples.

Results

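Gipr, Grin1, Muc2, Myh7b, Selenbp1, Pkp2, Ctse, Fzd7, Dntt and Bcar1 are 10 mouse genes known mainly from other tissues or from earlier stages of lymphocyte development. They were expressed in wild-type Th17 cells and were found at a small part of that level in Th17 cells without PRAK. The members were taken by gene symbol from the deposited table, where each symbol occurred once, so that all 10 were found among 17921 genes. They were selected on their measured KO and WT counts (low in both KO libraries, high in both WT libraries), so their levels and fold changes are given as a description, with no test.

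The study compared 2 groups of mouse Th17 cells by RNA sequencing. Th17 cells are the CD4+ helper T cells that secrete interleukin 17. The first group came from 2 PRAK KO mice and the second from 2 WT mice, with 1 library per mouse (KO 1, KO 2, WT 1 and WT 2, after the mouse numbers in the labels). In both groups naive CD4+ T cells were enriched and held under Th17-polarising culture for 72 h, and all cells were collected on day 3. PRAK is a protein kinase activated by p38 and encoded by Mapkapk5. No source used here gives the strain, sex or age of the mice, the part of the gene deleted or the purity of the cells.

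The total expected count per library lay between 19418012 and 20027775 in the KO libraries and between 19853344 and 20125124 in the WT libraries. Mapkapk5 had 20.04 CPM in KO 1 and 21.6 CPM in KO 2, against 35.6 in WT 1 and 38.4 in WT 2, so both libraries labelled KO had less of it than both labelled WT. Its log2 fold change was -0.83 ± 0.13 SE (adjusted p = 0.0194, edgeR quasi-likelihood test; between 7.59e-05 and 0.169 over the alternatives, and above 0.05 without either WT library). The 11 T cell and Th17 markers, among them Cd3e, Cd3g, Cd4, Il17a, Il17f, Il23r, Ccr6, Batf and Maf, were found in all 4 libraries, with sums of 4304 and 3012 CPM in KO 1 and KO 2 and of 4811 and 4624 CPM in WT 1 and WT 2. By the same test Il23r was called lower in KO (12.7 and 5.52 CPM, against 31.2 and 31.1 in WT, adjusted p = 0.0390). Ccr6 was called higher (53.2 and 45.4 CPM, against 22.9 and 22.5, adjusted p = 0.00963), and 9 did not pass. Il17f differed between the KO mice (1994 CPM in KO 1 and 637 in KO 2, against 2224 and 1987 in WT). CPM are counts scaled to library size, here with TMM factors. In bulk samples, fewer cells of a type and less RNA per cell cannot be told apart. Beside the low levels of the 10 genes in the KO libraries, summed markers of myeloid cells (119 and 284 CPM in KO, 58.3 and 74.8 in WT), of B cells (103 and 86.9 in KO, 26.3 and 69.5 in WT) and of CD8 T and NK cells (345 and 282 in KO, 51.0 and 128 in WT) lay higher in both KO libraries. Their part in the levels of the 10 genes was not tested.

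The 10 genes serve unrelated functions. Gipr encodes the receptor for the incretin hormone GIP, which couples to cyclic AMP and is best known from pancreatic islets. Grin1 encodes the obligatory subunit of the NMDA glutamate receptor, and Fzd7 encodes a Frizzled receptor for Wnt ligands. Pkp2, a plakophilin, and Myh7b, a myosin heavy chain, belong to cell junctions and to striated muscle. Muc2 is the gel-forming mucin of intestinal goblet cells. Bcar1 encodes p130Cas, an adaptor of integrin and Src signalling, and Selenbp1 a selenium-binding protein with methanethiol oxidase activity. Ctse, an aspartic protease of the endosomal system, and Dntt, the terminal deoxynucleotidyl transferase that adds nucleotides to V(D)J junctions in developing lymphocytes, are the 2 members with a textbook role in immune cells. Ctse is found in stomach, erythroid and antigen-presenting cells.

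The genes lie on 7 chromosomes of GRCm38.p6, by RefSeq. Ctse (chr1:131638314-131675507) and Fzd7 (chr1:59482147-59486955) are on chromosome 1. Grin1 (chr2:25291177-25319187) and Myh7b (chr2:155611243-155634307) are on chromosome 2. Gipr (chr7:19156063-19170248) and Muc2 (chr7:141690340-141754691) are on chromosome 7. The others are Selenbp1 (chr3:94933083-94944758), Bcar1 (chr8:111710474-111743849), Pkp2 (chr16:16213345-16272712) and Dntt (chr19:41029275-41059525).

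RefSeq promoters were held for 7 of the 10 genes (Bcar1 with 2 starts, giving 8 promoters), and the 250 bases before each start were searched on both strands for 8 short motifs. ACGTG, the core of the element bound by hypoxia-inducible factors and a part of the E-box CACGTG, occurred in 4 of these 8 promoters, against 16.6% of 32851 promoters of the same length in the mouse table. ACGTG was the most frequent of the 8 motifs in these promoters. The 4 that hold it are therefore shown 5′ to 3′ on the strand of the gene, with ACGTG or its complement in capitals. CACGTG reads the same on both strands, so each CACGTG holds ACGTG on both strands, overlapping.
Grin1, chr2:25319188-25319437, minus strand: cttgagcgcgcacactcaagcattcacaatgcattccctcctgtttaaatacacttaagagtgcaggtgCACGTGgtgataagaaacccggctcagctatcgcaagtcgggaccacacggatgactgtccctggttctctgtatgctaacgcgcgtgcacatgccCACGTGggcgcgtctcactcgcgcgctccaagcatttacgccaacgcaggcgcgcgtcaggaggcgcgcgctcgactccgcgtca
Myh7b, chr2:155610993-155611242, plus strand: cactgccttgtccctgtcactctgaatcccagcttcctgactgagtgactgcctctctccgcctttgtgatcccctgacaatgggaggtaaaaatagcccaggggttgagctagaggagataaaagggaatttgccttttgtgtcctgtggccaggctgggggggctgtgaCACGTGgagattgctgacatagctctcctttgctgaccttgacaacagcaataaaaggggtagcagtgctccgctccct
Selenbp1, chr3:94932833-94933082, plus strand: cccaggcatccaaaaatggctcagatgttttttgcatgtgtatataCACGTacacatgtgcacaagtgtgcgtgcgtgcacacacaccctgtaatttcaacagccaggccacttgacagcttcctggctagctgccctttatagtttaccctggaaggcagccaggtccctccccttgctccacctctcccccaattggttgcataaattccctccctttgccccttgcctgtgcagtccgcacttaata
Bcar1, chr8:111743850-111744099, minus strand: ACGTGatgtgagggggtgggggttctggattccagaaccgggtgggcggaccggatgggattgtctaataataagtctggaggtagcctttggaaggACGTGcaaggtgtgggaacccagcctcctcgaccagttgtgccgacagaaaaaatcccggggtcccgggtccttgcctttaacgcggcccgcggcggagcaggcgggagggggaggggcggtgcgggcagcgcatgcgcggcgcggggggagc
The variant core GCGTG occurred in 3 of the 8 promoters, against 28.2% of all. Either core occurred in 5 of the 8, against 38.6% of all. Both cores hold a CpG, so their frequency also depends on CpG content. The ratio of CpG observed to CpG expected from C and G content had a median of 0.374 over all promoters. It was 1.26 for Grin1, 0.902 for the first start of Bcar1, 0.260 for Selenbp1 and 0.167 for Myh7b. Other motifs were found in few of them: TGACNNNGC, a core of the NRF2 antioxidant element, in 1 of 8 (Myh7b, 10.2% of all), the AP-1 motif TGANTCA in 1 (Muc2, 6.75%), the ROR half-site AGGTCA in 1 (Myh7b, 14.0%), the RUNX motif TGTGGT in 1 (Grin1, 14.0%), TATAAA in 2 (Selenbp1 and Muc2, 12.4%) and the STAT motif TTCNNNGAA in 0 (7.02%). The windows of Fzd7 and Dntt held none of the 8 motifs. GC content of the 8 windows ranged between 41.6% (Dntt) and 67.2% (the second start of Bcar1), with a median of 52.4% over all promoters. A match says only that these letters are present, and the start used in Th17 cells was not measured. For Fzd7, Myh7b and the first start of Bcar1, the bases just after the start were not found unbroken in a GENCODE transcript of the gene.

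Myh7b also hosts a microRNA gene, whose main arm is shown since the host transcript is the only part measured here. Its 21 bases (chr2:155622893-155622913, plus strand) lie within the span of Myh7b, with the seed (bases 2 to 8) in capitals.
mmu-miR-499-5p: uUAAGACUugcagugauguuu
The microRNA itself was not analysed here.

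Among the receptor genes, Gipr had 5.61 CPM in KO 1 and 6.40 CPM in KO 2, against 148 in WT 1 and 205 in WT 2. The genotypes did not overlap, and the KO mean of 6.01 ± 0.562 CPM was 3.40% of the WT mean of 176 ± 40.4 (SD, n = 2 each, as for all means here). The log2 fold change, KO over WT, was -4.87 ± 0.22 SE.

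Grin1 was near the limit of counting in KO cells. It had 0.339 CPM in KO 1 and 0.323 in KO 2 (expected counts of 7 and 6.49), against 17.5 in WT 1 and 22.8 in WT 2 (342 and 437 counts). The KO mean was 1.64% of the WT mean, the smallest remainder of the 10, with a log2 fold change of -5.96 ± 0.30 SE, the 10th lowest of 12680 genes tested. An exact 95% Poisson interval for the KO 1 count reached from 2.81 to 14.4 (counting error only), so the size of the remainder is known within a few fold at best.

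Fzd7, the Wnt receptor gene, had 4.26 CPM in KO 1 and 3.97 in KO 2, against 70.04 in WT 1 and 64.8 in WT 2, so that no KO value came near a WT value. The KO mean was 6.10% of the WT mean (log2 fold change -4.03 ± 0.14 SE).

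Among the structural and adaptor genes, Pkp2 reached 0.823 CPM in KO 1 and 0.746 CPM in KO 2, against 20.8 in WT 1 and 25.1 in WT 2 (log2 fold change -4.86 ± 0.24 SE, 3.41% of WT). Myh7b reached 0.290 CPM in KO 1 and 0.249 CPM in KO 2 (6 and 5 counts), against 12.5 in WT 1 and 17.0 in WT 2 (243 and 325 counts). Its log2 fold change was -5.74 ± 0.34 SE and its KO mean 1.83% of the WT mean. Both genes thus lay below 1 CPM in both KO libraries and above 10 CPM in both WT libraries.

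Bcar1 had the smallest fold change of the 10 and the closest replicates. It had 2.57 CPM in KO 1 and 2.49 in KO 2, against 30.5 in WT 1 and 30.1 in WT 2, and the KO mean was 8.34% of the WT mean (log2 fold change -3.58 ± 0.17 SE). It was the 82nd lowest of all genes tested.

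Muc2, the secreted mucin, had 0.242 CPM in KO 1 and 0.596 in KO 2 (5 and 12 counts), against 14.3 in WT 1 and 17.3 in WT 2 (279 and 331 counts). Its log2 fold change of -5.22 ± 0.40 SE had the largest standard error of the 10. The KO remainder was 2.65% of the WT mean, and the genotypes did not overlap.

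Among the enzymes, Selenbp1 had 1.74 CPM in KO 1 and 3.73 in KO 2, against 112 in WT 1 and 140.4 in WT 2. The KO mean was 2.17% of the WT mean (log2 fold change -5.53 ± 0.35 SE). Selenbp1 has a near-identical paralog, Selenbp2, with which reads can be shared, so the split between them is uncertain. Selenbp2 was listed at 0 in both KO libraries and at 0.114 CPM in WT 1 and 0.734 in WT 2, below the filter on low counts.

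Ctse had 4.74 CPM in KO 1 and 5.92 in KO 2, against 113 in WT 1 and 128 in WT 2 (log2 fold change -4.50 ± 0.17 SE, 4.41% of WT). Dntt had 0.726 CPM in KO 1 and 1.49 in KO 2 (15 and 30 counts), against 32.1 in WT 1 and 43.7 in WT 2 (626 and 835 counts). Its log2 fold change was -5.09 ± 0.36 SE, and the KO mean was 2.93% of the WT mean. Neither gene overlapped between the genotypes.

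All 10 genes passed the filter on low counts. In all 10 both KO values lay below both WT values, as in 31.3% of all genes tested (31.7% had both KO values above both WT values), and all 10 were called lower at an adjusted p under 0.05, as were 8.23% of all genes. The choice of the members used this contrast, so nothing is read from either count. Expected counts of the 10 genes ran from 5 to 129 in the KO libraries and from 243 to 3922 in the WT libraries. The lowest WT value was between 11.7 times (Bcar1) and 51.8 times (Grin1) the highest KO value of the same gene. The median log2 fold change was -4.98 over the 10 genes and 0.02 over all genes tested.

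**Figure D1:**
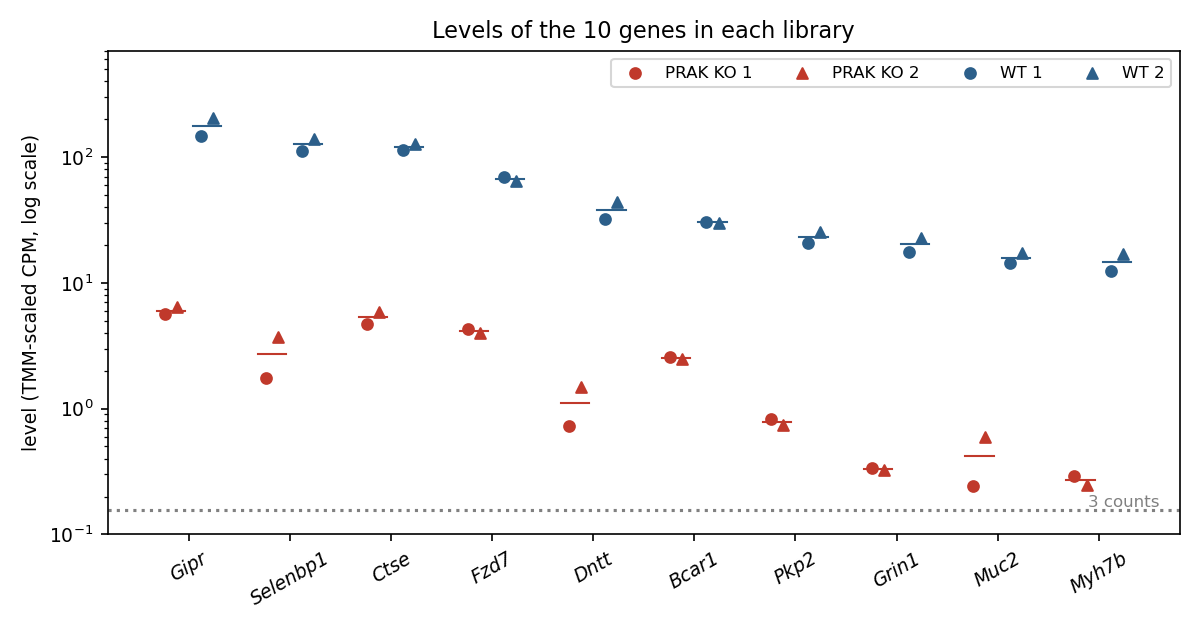
Level of each of the 10 genes (TMM-scaled CPM, log axis) in PRAK KO 1 and KO 2 (red, left) and WT 1 and WT 2 (blue, right), with bars at the genotype means and a dotted line at 3 counts. In every gene both KO values lie below both WT values, and Grin1, Muc2 and Myh7b come closest to the line in KO cells.

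**Figure D2:**
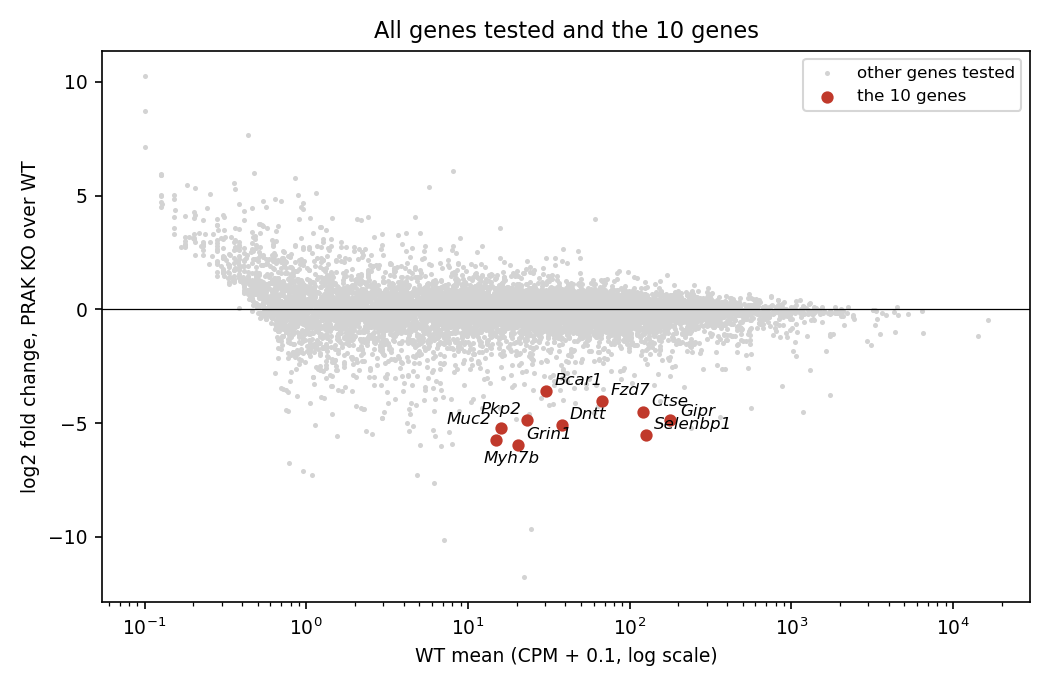
Log2 fold change (PRAK KO over WT) against the WT mean (CPM + 0.1, log axis) for the 12680 genes tested, with the 10 genes in red. The 10 genes lie between -3.58 and -5.96, at WT means between 14.7 and 176 CPM.

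Levels can be compared between genes only per length, for which the authors' TPM values were used. In WT cells the order by mean TPM was Selenbp1 (137 ± 18.7), Gipr (123 ± 23.2), Ctse (104 ± 6.57), Dntt (32.9 ± 6.30), Fzd7 (25.3 ± 1.97), Bcar1 (17.6 ± 0.552), Pkp2 (14.4 ± 1.59), Grin1 (8.94 ± 1.53), Myh7b (4.18 ± 0.757) and Muc2 (4.12 ± 0.460). Neighbours in this order overlapped over the 2 WT mice for Selenbp1 with Gipr, Gipr with Ctse, and Myh7b with Muc2, and did not overlap elsewhere. Selenbp1, Gipr and Ctse lay at percentiles between 91.6 and 93.8 of TPM over the 17921 genes in WT cells, while Muc2 lay at 45.6.

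In KO cells the order by mean TPM was Ctse (4.89 ± 0.530), Gipr (3.23 ± 0.0212), Selenbp1 (3.15 ± 1.48), Fzd7 (1.66 ± 0.163), Bcar1 (1.57 ± 0.113), Dntt (1.04 ± 0.460), Pkp2 (0.525 ± 0.0636), Grin1 (0.155 ± 0.0212), Muc2 (0.115 ± 0.0636) and Myh7b (0.0850 ± 0.00707). The 3 genes highest in WT cells were also the 3 highest in KO cells. Their places among all genes were lower, at percentiles between 43.2 and 46.8 for Selenbp1, Gipr and Ctse and at 22.2 for Muc2.

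The values of the 2 mice of a genotype lay closer for some of the 10 genes than for others, which is a description with no test. Between the KO mice, Muc2 was 2.46 times higher in KO 2, Selenbp1 2.14 times and Dntt 2.05 times, while the ratio of KO 2 to KO 1 lay between 0.856 and 1.25 for the other 7. A ratio of at least 2 was seen in 2.61% of the 10006 tested genes with a WT mean of at least 5 CPM, and in 9 of the 37 genes outside the list that had such a WT mean and fell at least as far as Bcar1. With KO 2 left out, the log2 fold changes of Muc2, Selenbp1 and Dntt were -5.997, -6.18 and -5.70, and with KO 1 left out they were -4.71, -5.08 and -4.66.

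Between the WT mice, 8 of the 10 genes were higher in WT 2, by 1.13 times (Ctse) to 1.39 times (Gipr), and Fzd7 and Bcar1 were slightly lower (0.925 and 0.989 times). Of the 10006 genes above, 48.8% were higher in WT 2. Of the 1043 genes called lower in KO cells 69.4% were, as were 31 of the 37 other genes that fell as far. The median absolute log2 difference between the WT mice was 0.30 for the 10 genes and 0.09 for the 10006 genes. Between the KO mice the medians were 0.21 and 0.24. For the 10006 genes 0.5 CPM was added to each value before the ratio, and for the 10 genes nothing was added. That addition shrinks ratios at low levels such as the KO levels of the 10 genes, so 0.21 and 0.24 cannot be compared.

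**Figure D3:**
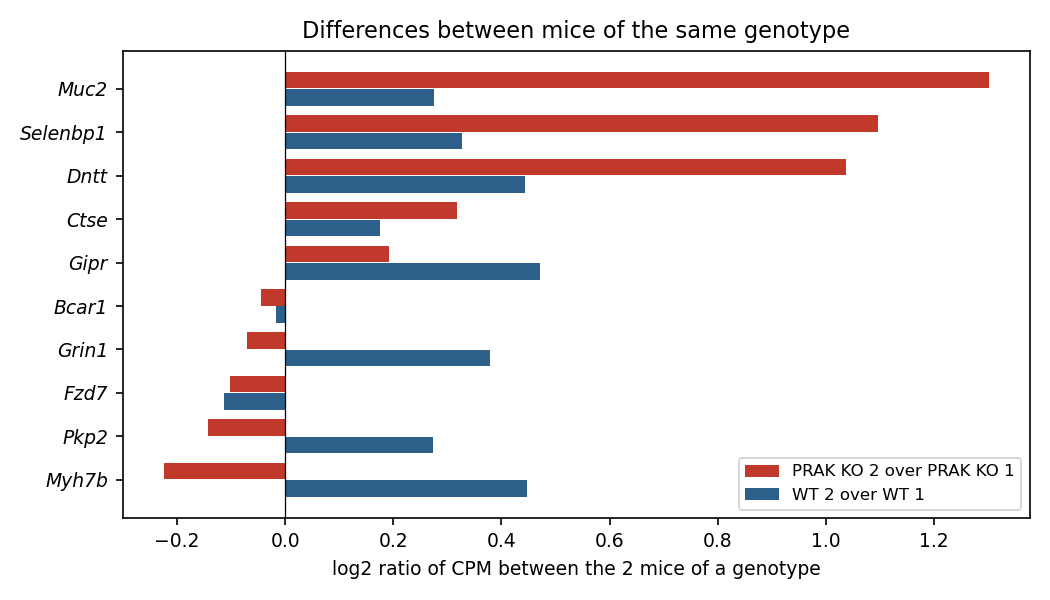
Log2 ratio of CPM between the mice of a genotype, KO 2 over KO 1 (red) and WT 2 over WT 1 (blue), for each of the 10 genes. Muc2, Selenbp1 and Dntt differ by more than 2 times between the KO mice, and 8 of 10 genes are higher in WT 2 than in WT 1.

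Most markers of the tissues in which these genes are best known were below 1 CPM in every library. Of 5 goblet cell markers in the table Fcgbp, Zg16 and Spink4 were at 0 in all 4 libraries, and the summed level was at most 0.405 CPM in the KO libraries and at most 0.279 in the WT libraries. Of 9 striated muscle markers Myh6 and Myh7 were at 0, and the sums were 1.55 and 2.98 CPM in KO and 1.23 and 1.15 in WT. Only 3 of 5 listed liver markers, 2 of 6 islet and adipose markers (Gcg and Adipoq) and 2 of 5 stomach markers were in the table. The sums reached at most 0.0994 CPM in KO and 0.0523 in WT for liver. They reached 0.795 and 0.0523 for islet and adipose markers, and 0.249 and 0.308 for stomach markers. Summed stromal markers were 1.02 and 1.49 CPM in KO and 3.28 and 3.55 in WT (Col3a1 at 0), and epithelial markers 3.49 and 9.59 in KO and 5.59 and 6.85 in WT (Krt8 at 0). The 7 neuronal markers summed to 13.0 and 18.2 CPM in KO and 9.08 and 12.1 in WT, of which Syp, a synaptic vesicle gene, made 10.1 and 16.3 in KO and 7.38 and 9.62 in WT. Erythroid markers summed to 0.532 and 1.73 CPM in KO and 1.37 and 7.18 in WT. Thymocyte markers summed to 2.72 and 4.78 CPM in KO and 3.07 and 3.65 in WT. Of these Rag1 was at 0.0484 and 0.0497 CPM in KO and at 0 and 0.261 in WT. The epithelial keratin gene Krt18 fell to 0.436 and 0.199 CPM in KO, against 1.79 and 3.24 in WT (adjusted p = 0.0302, edgeR quasi-likelihood test; 0.00169 to 0.16 over the alternatives, the highest without WT 2), and the collagen gene Col1a1 fell to 0.629 and 0.994 CPM in KO, against 2.62 and 2.93 in WT (0.0419; 0.00164 to 0.29, above 0.05 without either WT library). Krt18 was the only one of 3 tested epithelial markers to be called, and the other 2 had higher means in KO. Epcam had 2.08 and 7.21 CPM in KO and 3.28 and 3.35 in WT (adjusted p = 0.611, edgeR quasi-likelihood test). Cldn4 had 0.823 and 1.74 CPM in KO and 0.461 and 0.209 in WT (0.105, same test). The part of any of these cell types in the levels of the 10 genes was not tested.

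Relatives of the 10 genes, by family, were mostly low or did not pass the test. Of 87 relatives listed, 81 were in the table, 57 of them below 1 CPM in every library, and 25 were tested. Of the 25 tested, 2 rose and 1 fell, beside 13.4% of all genes called in either direction (5.14% higher and 8.23% lower). The median log2 fold change of the 25 was 0.06. In Gipr's class of receptors, Calcrl, which forms receptors for calcitonin gene-related peptide and adrenomedullin, rose to 47.8 and 37.2 CPM in KO, against 19.7 and 20.4 in WT (log2 fold change 1.08 ± 0.17 SE, adjusted p = 0.0172, edgeR quasi-likelihood test, as for each adjusted p here). Over 9 alternatives its adjusted p lay between 2.49e-06 and 0.0501, the highest without WT 1. Of the aspartic proteases related to Ctse, Napsa fell to 11.3 and 7.06 CPM in KO, against 20.1 and 24.6 in WT (-1.28 ± 0.27 SE, adjusted p = 0.0370; 4.83e-05 to 0.117 over the alternatives, the highest without WT 2).

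Glutamate receptor genes were few in these cells. The NMDA subunit genes Grin2a, Grin2b and Grin2c stayed below 0.3 CPM in all libraries, and Grin2d, a subunit that can pair with Grin1, had 1.45 and 0.547 CPM in KO and 1.28 and 1.99 in WT (log2 fold change -0.70, adjusted p = 0.441). Gria3, an AMPA receptor subunit gene, rose to 2.76 and 4.90 CPM in KO, against 0.199 and 0.211 in WT (4.17 ± 0.52 SE, adjusted p = 0.0102; 3.27e-06 to 0.0104 over the alternatives). Grik5, a kainate receptor subunit gene, had 19.5 and 39.6 CPM in KO and 34.8 and 37.3 in WT.

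The 6 fixed close relatives tested for other members did not pass. Myh9, the non-muscle myosin heavy chain, averaged 1112 ± 94.3 CPM in KO and 831 ± 79.1 in WT (log2 fold change 0.42, adjusted p = 0.139). Nedd9, the p130Cas relative of lymphocytes, had 75.9 and 92.3 CPM in KO and 58.4 and 50.6 in WT (0.63, adjusted p = 0.0515). Polm, the polymerase most like Dntt, had 33.7 and 33.5 CPM in KO and 42.7 and 49.2 in WT (-0.45, adjusted p = 0.0751). The values were 0.68 for the lysosomal protease Ctsd (adjusted p = 0.0931), 0.28 for the plakophilin Pkp4 (0.286) and 0.23 for the Frizzled gene Fzd5 (0.581). Pkp3, another plakophilin, had 71.0 and 83.8 CPM in KO and 79.5 and 78.6 in WT (-0.03, adjusted p = 0.893). Myh11, the smooth muscle myosin heavy chain gene, had 4.55 and 0.646 CPM in KO and 9.43 and 9.36 in WT (-1.85, adjusted p = 0.166), with the KO libraries far apart. Muc5ac, Muc5b and Muc6, the secreted mucins that flank Muc2, stayed below 0.15 CPM in all libraries, and the cell-surface mucin gene Muc13 had 3.39 and 6.81 CPM in KO and 5.38 and 7.37 in WT.

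Genes known to work with the 10 members moved in both directions. Of 126 listed partners 118 were in the table and 95 were tested. Of the 95, 7 rose and 5 fell (12.6%, beside 13.4% of all genes), with a median log2 fold change of 0.08. Among partners of Gipr, Arrb1, a beta-arrestin that desensitises G protein-coupled receptors, fell to 116 and 143 CPM in KO, against 509 and 534 in WT (log2 fold change -2.01 ± 0.15 SE, adjusted p = 0.00360; 1.38e-29 to 0.00427 over the alternatives). Of 12 tested it was the one that passed (8.33% lower, beside 8.23% of all genes). Dpp4, the protease that inactivates GIP, had 29.4 and 59.1 CPM in KO and 54.5 and 60.1 in WT (-0.37, adjusted p = 0.470).

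Of 8 partners of Grin1 tested, 2 fell, among them the synaptic scaffold gene Dlg4. It had 61.2 and 83.7 CPM in KO, against 130.3 and 160.1 in WT (log2 fold change -1.003 ± 0.19 SE, adjusted p = 0.0306; 2.52e-05 to 0.0811 over the alternatives, the highest without WT 2).

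Of 5 myosin light chain and related partners of Myh7b tested, Myl4, the atrial and embryonic light chain, fell to 0.387 and 0.696 CPM in KO, against 3.79 and 4.50 in WT (log2 fold change -2.92 ± 0.42 SE, adjusted p = 0.0145; 4.62e-05 to 0.0297 over the alternatives). Of 5 desmosomal and junction partners of Pkp2, Dsp, the desmoplakin gene, rose to 2.61 and 1.54 CPM in KO, against 0.410 and 0.157 in WT (2.84 ± 0.59 SE, adjusted p = 0.0364). That call was lost without WT 1 (0.0505, with a log2 fold change of 3.67) and without WT 2 (0.191), the range over the alternatives being 0.000529 to 0.191. Jup, the plakoglobin gene, had 10.6 and 19.8 CPM in KO and 19.8 and 22.9 in WT (-0.49, adjusted p = 0.329).

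Of 13 cathepsins and related genes set beside Ctse, 3 rose (23.1%, beside 5.14% of all genes) and 0 fell (edgeR quasi-likelihood test). These were Ctsz (log2 fold change 0.62, adjusted p = 0.0250), the legumain gene Lgmn (0.90, adjusted p = 0.0340) and Ctsk (3.10, adjusted p = 0.0496). Ctsk had 0.629 and 1.24 CPM in KO and 0.154 and 0.0523 in WT, near the limit of counting in WT. All 3 genes are also expressed by myeloid cells, whose markers lay higher in the KO libraries. None of the 3 passed with WT 1 left out (0.293, 0.227 and 0.140, with a log2 fold change of 4.003 for Ctsk) or with WT 2 left out (0.229, 0.141 and 0.335). Over all alternatives the lowest were 0.000269, 0.000222 and 0.00557. Ctsk also did not pass with no filter on low counts (0.0518), with size factors of the DESeq2 kind (0.05005) or by DESeq2 (0.0811), and so passed in 4 of 9 alternatives. The part of myeloid cells in these changes was not tested.

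Of 18 tested Wnt pathway partners of Fzd7, Tcf7l1 alone passed (5.56% lower, beside 8.23% of all genes). This TCF family gene fell to 4.79 and 3.13 CPM in KO, against 11.6 and 12.8 in WT (log2 fold change -1.62 ± 0.27 SE, adjusted p = 0.0227; 4.98e-05 to 0.0686 over the alternatives, the highest without WT 2). Axin2, a common readout of Wnt signalling, had 12.3 and 11.5 CPM in KO and 11.4 and 10.2 in WT (0.14, adjusted p = 0.629). Ctnnb1, the beta-catenin gene, had 250 and 220 CPM in KO and 316 and 303 in WT (-0.40, adjusted p = 0.0986).

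Of 14 partners of Bcar1, 3 rose (21.4%, beside 5.14% of all genes). Src, the kinase that phosphorylates p130Cas, had 9.10 and 9.30 CPM in KO, against 3.13 and 2.82 in WT (log2 fold change 1.63 ± 0.23 SE, adjusted p = 0.0143). Dock2 (0.54, adjusted p = 0.0390) and Dock1 (2.88, adjusted p = 0.0437), activators of the GTPase RAC, were the others. Dock1 had 0.581 and 0.646 CPM in KO and 0.103 and 0.0523 in WT, under 3 counts in each WT library. With WT 1 left out, Src, Dock2 and Dock1 had adjusted p-values of 0.0629, 0.427 and 0.272, and with WT 2 left out of 0.0951, 0.465 and 0.450. The lowest over all alternatives were 0.000109, 0.000525 and 0.0259, and Dock1 also did not pass with no filter on low counts (0.0632). Of 7 tested partners of Dntt in V(D)J recombination and end joining, of 7 sulfur and peroxide enzymes set beside Selenbp1 and of 6 goblet cell and glycosylation genes set beside Muc2, 0 passed (edgeR; of these 20 genes, 3 had an unadjusted p under 0.05, and DESeq2 called 0).

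**Figure D4:**
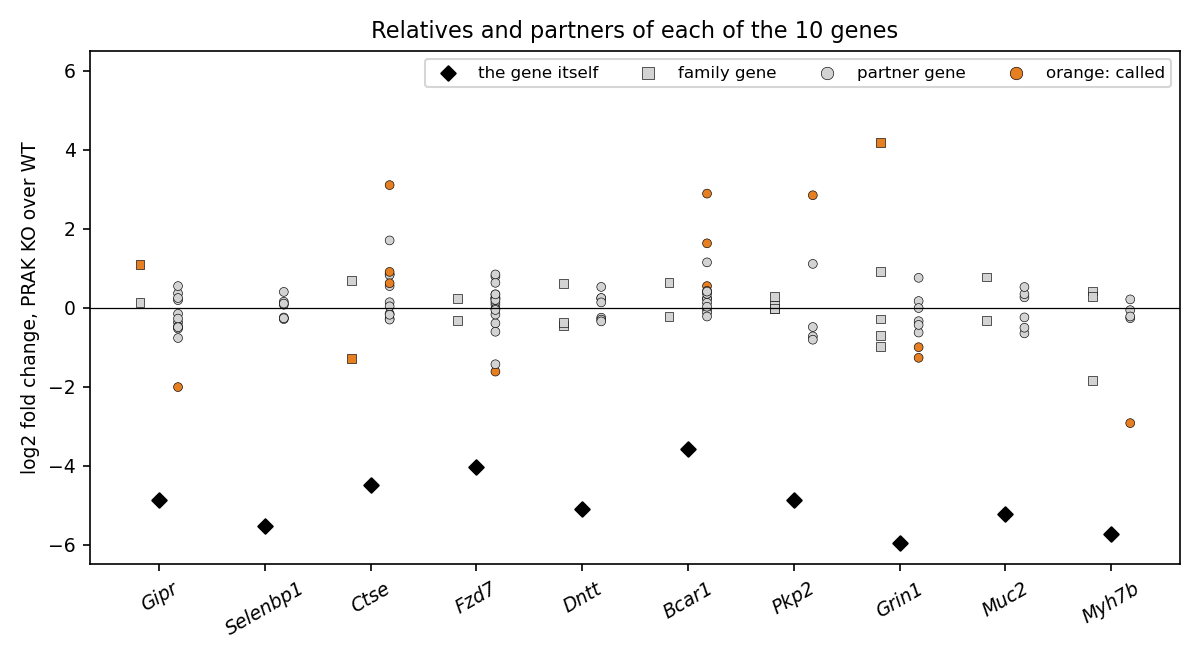
Log2 fold change (PRAK KO over WT) of each of the 10 genes (black diamonds), of its tested relatives (squares, left) and of its tested partners (circles, right), with called genes in orange. Each of the 10 genes lies below all of its tested relatives and partners, but the 10 were chosen for their falls, so nothing is read from this order.

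Genes beside the 10 members on the chromosome mostly did not pass the test. Of 60 protein-coding neighbours (3 on each side of each gene), 57 were in the table and 44 were tested. Of the 44, 1 rose and 4 fell, with a median log2 fold change of -0.11. In either direction 11.4% were called, beside 13.4% of all genes, and 9.09% were called lower, beside 8.23% of all genes. With libraries scaled by size alone 2 rose and 2 fell. Acss2, the acetyl-CoA synthetase gene 48.5 kb from Myh7b, fell to 8.91 and 12.2 CPM in KO, against 43.4 and 43.03 in WT (log2 fold change -2.04 ± 0.19 SE, adjusted p = 0.00505; 5.03e-15 to 0.00613 over the alternatives). Spidr, a DNA repair scaffold gene 66.5 kb from Pkp2, fell to 28.5 and 26.1 CPM in KO, against 66.3 and 65.8 in WT (-1.27 ± 0.12 SE, adjusted p = 0.00505; 1.58e-10 to 0.00700).

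The other neighbours called lower fell less and were lost without either WT library. Trpc4ap, whose span overlaps that of Myh7b so that their reads cannot be told apart there without strand, fell to 314 and 336 CPM in KO, against 470.1 and 490 in WT (log2 fold change -0.56, adjusted p = 0.0439). Ldhd, a lactate dehydrogenase gene near Bcar1, fell by 1.06 (adjusted p = 0.0487). With WT 1 left out, Trpc4ap and Ldhd had adjusted p-values of 0.345 and 0.286, and with WT 2 left out of 0.460 and 0.0985. Over all alternatives the lowest were 0.000451 and 0.000119. With libraries scaled by size alone Trpc4ap (0.0653) and Ldhd (0.0594) did not pass.

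**Figure D5:**
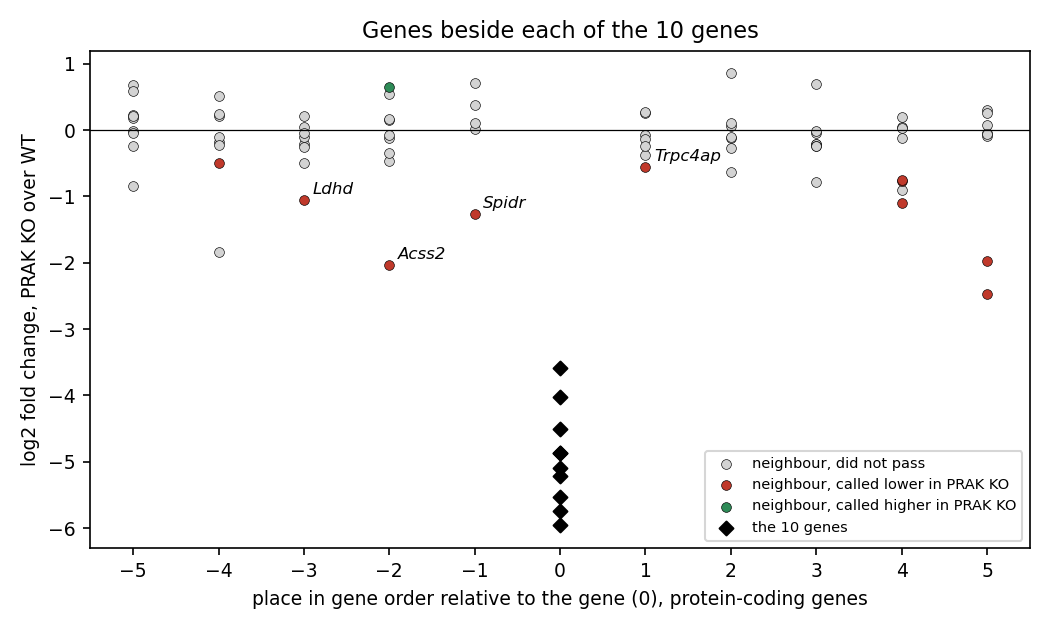
Log2 fold change (PRAK KO over WT) of the tested protein-coding genes up to 5 places to either side of each of the 10 genes, which stand at place 0 (black diamonds). The neighbours lie above all of the 10 genes, which were chosen for their falls, so nothing is read from this order. Those called lower within 3 places are Acss2, Spidr, Ldhd and Trpc4ap.

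Some other genes had a pattern like that of the 10. Likeness was measured over the 4 libraries as the Euclidean distance from the mean profile of the 10 genes, in log2(CPM + 0.5) relative to the WT mean, among 9775 named genes with a WT mean of at least 5 CPM. By this measure Ctse was the most typical of the 10 (distance 0.0816), and Bcar1 (1.46) and Selenbp1 (1.49) the least. The nearest gene outside the list was H2-Q10, a class I MHC gene whose reads can be shared with near-identical copies, at 2.74 and 2.43 CPM in KO and 53.3 and 67.6 in WT (distance 0.285). Slc2a3, a glucose transporter gene, followed at 36.5 and 66.8 CPM in KO and 1136 and 1225 in WT (0.543), then Gbe1, the glycogen branching enzyme gene, at 7.36 and 11.6 in KO and 142 and 164 in WT (0.617). The copper transporter gene Atp7b had 1.21 and 0.753 CPM in KO and 23.1 and 24.4 in WT. The others of the nearest 10 were Smtnl2, Mboat2, Slc38a3, Tgm1, Vldlr and Tgm2, at distances between 0.708 and 0.892. Slc38a3, an amino acid transporter gene, was at 0 in both KO libraries, against 5.08 and 8.94 CPM in WT, at least 47.0-fold lower in KO with 3 counts per library as the limit. These genes were picked for this likeness, so their falls are a description.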

How the data were processed

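RNA sequencing measured mRNA levels in 4 libraries of mouse Th17 cells. The authors deposited 1 table with expected counts (estimated reads per gene, not normalised), FPKM (normalised by the authors for length and depth, and not used here) and TPM (which the authors' software sets to a fixed sum), as its column names say. RSEM 1.2.12, HISAT2 2.0.4, Bowtie2 2.2.5 and GRCm38.p6 are named in the submitters' processing notes. Strand and annotation release: not given in the sources used here.

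Expected counts were rounded for testing. Levels in CPM used the unrounded values, TMM factors and the library sizes of the 12680 genes left by filterByExpr (minimum count 10, minimum total 15). PRAK KO was compared with WT by the quasi-likelihood test of edgeR 4.0.16 (R 4.3.3) over all these genes, with Benjamini-Hochberg adjustment and a threshold of 0.05. DESeq2 1.42.0 was an alternative. The test was checked on simulated counts. Standard errors came from the fold change and F. The fit had 2 residual and 3.58 prior degrees of freedom.

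The members and lists were chosen with earlier results of these data known. The genes named are the 10 members, the called genes of the family, partner and neighbour lists (up to 6 per member), 7 fixed close relatives, the 10 genes nearest in pattern and Mapkapk5. Genes named beyond these (such as Grin2d, Grik5, Muc13, Pkp3, Dpp4, Jup, Axin2, Ctnnb1, Myh11, Krt18, Col1a1 and Syp) were chosen after their values were seen. Some genes of these lists are counted but not reported here by name. Listed symbols were matched to the table by symbol or synonym, and neighbours by gene ID to RefSeq of GRCm38.p6. Promoter and microRNA sequences are RefSeq's.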

Additional observations from a re-analysis of the deposited data

How the results depend on the processing

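Each of the 10 genes stayed lower in KO cells under all 10 alternatives tried, and their log2 fold changes lay between -3.40 and -6.18. They were chosen for low KO and high WT counts in these libraries, so the direction was set by the choice. Only the range of the fold changes is read here. The median over the 10 was -4.98, and between -4.53 (mean TPM with a pseudocount of 0.1) and -5.31 (without KO 2) under the alternatives. The TPM values gave smaller falls for the lowest genes, -5.15 for Grin1, -4.53 for Myh7b and -4.29 for Muc2, since the pseudocount is near their KO level. Counts of called genes depended more on the libraries than on the scaling. Leaving out 1 library gave between 693 and 5999 called genes in place of 1695, between 2 and 17 relatives in place of 3, between 4 and 55 partners in place of 12, and between 2 and 15 neighbours in place of 5. A genotype left with 1 library was assumed to vary like the other. Scaling by library size alone called 918 genes higher and 864 lower, against 652 and 1043 with TMM. DESeq2, fitted with no filter, called 6 of 72 relatives and 19 of 112 partners, beside 2307 of 16885 genes. With 1 neighbour on each side 2 of 12 were called, 0 higher and 2 lower (16.7% lower). With 5 on each side 11 of 77 were called, 1 higher and 10 lower (13.0% lower), beside 8.23% of all genes called lower. With mouse number as a replicate block 7 of 25 relatives, 27 of 95 partners and 8 of 44 neighbours were called, beside 2935 of all 12680 genes. Same-numbered mice deviated together weakly (r = 0.20 across 12680 genes), and with 2 pairs this does not show that the numbers pair the mice. At this depth KO levels of Grin1, Muc2 and Myh7b rest on 5 to 12 counts per library.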
